A study of Mus musculus with 2 samples.

Results

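The circadian clock genes were 10 genes chosen by symbol, Per1, Per2, Per3, Cry1, Nr1d1, Nr1d2, Ciart, Dbp, Arntl and Clock, out of 32245 gene symbols in the count matrices. All 10 were found. They were counted in hippocampal microglia, the brain's own macrophages, of mice aged 3 weeks postpartum, whose transcripts were read from their 3′ ends in single cells. There were 2 groups of 1 library each: Control mice, and FGR mice, which the series' title gives as fetal growth restriction, poor growth of the fetus in the womb. Mice of both groups were of the genotype Tmem119-tdTomato+/-, a red fluorescent reporter placed at a microglial gene, and cells positive for Tmem119 had been taken by flow cytometry. The sources used here do not give how growth was restricted, how many animals of which sex made up a library, or the time of day of collection. Any difference in the hour of collection and the difference between the groups therefore cannot be told apart. With 1 library per group no difference has a replicate check, and no test was made. All intervals are at 95% and cover counting error only.

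The clock is a feedback loop of transcription that runs in nearly every cell. CLOCK and BMAL1, the product of Arntl, bind E-box sequences and switch on the period genes Per1 to Per3, the cryptochromes Cry1 and Cry2, the nuclear receptor genes Nr1d1 and Nr1d2 (REV-ERBα and REV-ERBβ), Ciart and Dbp. PER and CRY proteins then repress CLOCK and BMAL1, the REV-ERB proteins repress Arntl, and DBP with its relatives TEF and HLF acts on D-box sequences, where NFIL3 opposes them. In rhythmic mouse tissues transcripts of Nr1d1, Dbp and the Per genes peak by day or around dusk, Cry1 peaks later, and Arntl peaks about opposite to Nr1d1. Per1 is also switched on directly by cAMP signalling through CREB and by glucocorticoids.

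Promoter sequence from RefSeq (build GRCm38.p6) is shown for Per1, Per3 and Ciart, the members past or nearest to the size limits used below, because clock motifs lie in it. Each stretch runs 5′ to 3′ on the strand of the gene, within the 250 bases before an annotated start site, and stops where an annotated exon begins. Capitals mark the E-box CACGTG, the D-box TTATGTAA and the 6-base core of the cAMP response element, TGACGT. The Per1 stretches are chr11:69098699-69098947 and chr11:69099902-69100151 on the plus strand. The Per3 stretch is chr4:151044666-151044915 and the Ciart stretch chr3:95882252-95882478, both on the minus strand.
Per1, upstream start site: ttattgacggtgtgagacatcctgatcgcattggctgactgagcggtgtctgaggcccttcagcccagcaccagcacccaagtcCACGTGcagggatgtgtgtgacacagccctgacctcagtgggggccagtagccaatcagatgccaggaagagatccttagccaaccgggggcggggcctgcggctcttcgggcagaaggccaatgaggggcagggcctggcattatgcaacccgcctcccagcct
Per1, downstream start site: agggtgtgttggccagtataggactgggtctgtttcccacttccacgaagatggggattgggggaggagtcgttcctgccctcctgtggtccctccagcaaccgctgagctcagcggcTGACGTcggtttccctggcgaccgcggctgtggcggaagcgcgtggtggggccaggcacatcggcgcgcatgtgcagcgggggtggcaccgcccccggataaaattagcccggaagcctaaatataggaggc
Per3: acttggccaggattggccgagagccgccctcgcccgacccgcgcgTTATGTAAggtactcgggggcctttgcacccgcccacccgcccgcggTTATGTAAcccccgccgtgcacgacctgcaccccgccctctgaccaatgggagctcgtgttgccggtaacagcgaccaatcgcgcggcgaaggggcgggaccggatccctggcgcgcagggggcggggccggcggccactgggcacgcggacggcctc
Ciart: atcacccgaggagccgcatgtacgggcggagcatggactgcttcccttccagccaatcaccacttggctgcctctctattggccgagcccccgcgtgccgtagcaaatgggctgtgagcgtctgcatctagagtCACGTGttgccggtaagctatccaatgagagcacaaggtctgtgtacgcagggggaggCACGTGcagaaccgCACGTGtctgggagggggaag

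Of the 10 members, 9 had a promoter in the RefSeq table, with 13 windows of 250 bases in all. Both strands were searched. The Ciart window held 3 E-boxes, and the windows of Per1 (upstream start site) and Cry1 held 1 each, whereas 6.02% of 32851 windows of the same length held any. No other member window held an E-box, among them those of Nr1d1, Nr1d2 and Dbp. The Per3 window held 2 copies of the D-box, a motif found in 0.819% of windows. The downstream Per1 window held 1 core of the cAMP response element, which 6.47% of windows held. The full 8-base form TGACGTCA, which contains that core, was in 1.55% of windows, the REV-ERB and ROR core TAGGTCA in 2.23% and the 13-base glucocorticoid response element in 0.387%, and no member window held one of these 3. These matches describe letters in a window and are not sites shown to be bound.

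The Control library gave 10687 cells with 53560293 UMIs (unique molecular identifiers, 1 per captured transcript molecule) and the FGR library 8618 cells with 45441515, and the medians per cell were 4657 and 4919.5 UMIs. Among these, 31 cell barcodes occurred in both libraries. At least 3 of 12 microglial markers were detected in 99.9% and 99.7% of cells, so the label of the sort held in nearly all. The summed level of 6 oligodendrocyte markers was 186 UMI counts-per-million (CPM) in the Control library against 214 in the FGR library, and that of 6 astrocyte markers was 195 and 325. Of the astrocyte markers, Slc1a3 stood at 163 and 298 CPM, while Slc1a2 stood at 21.7 and 16.1 and Aldoc at 6.74 and 5.13, and Gfap, Aqp4 and Gja1 stood below 3 CPM in both libraries. The other lists of 6 markers were lower: 7.32 and 3.41 CPM for neurons, 45 and 75.7 for vascular cells, 41.8 and 38.4 for border macrophages and 4.03 and 3.17 for other blood cells. The 5 red cell genes summed to 122 and 34.0 CPM. The part of these lists in the levels of clock genes was not tested beyond the values that follow. Of these markers, Cd163 and Lyve1 were at 0 in the Control library, S100a8 in the FGR library and Cd3e in the Control library, and Ly6c2 was at 0 in both. Without the cells that held 3 or more UMIs of such markers, the FGR to Control ratios described below were 2.0 for Per1, 0.575 for Per3, 0.671 for Nr1d2 and 1.61 for Ciart.

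The clock genes did not differ in one direction. Per1 was higher in the FGR library and Per3 was lower, both past a rule of size, which asked for at least 5 CPM in 1 library and a ratio whose whole interval lay above 1.5 or below 1/1.5. Of the 8 members at 5 CPM, 1 was higher and 1 lower by that rule, against 3.71% of 9678 genes called in either direction, 2.59% higher and 1.12% lower. The whole interval of the ratio lay above 1 for 2 of the 8 and below 1 for 4, against 18.2% and 42.5% of all genes. With a minimum of 1 CPM the rule called 2 members and 5.22% of genes, with one of 50 CPM 1 member and 3.64%, with a fold limit of 5/4 4 members and 9.0%, and with one of 2 it called 0 members and 1.60%. The median log2 ratio of the 8 was -0.11 and that of all genes -0.07. Per2 and Nr1d1 stayed under 5 CPM in both libraries and are described by their counts.

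Among the period genes, which encode the repressors that close the loop, Per1 (ENSMUSG00000020893, GRCm38 chromosome 11, 69095217 to 69109960, protein-coding like all the members) gave 4074 UMIs in the Control library against 7076 in the FGR library. Its level was 76.1 CPM (73.7 to 78.4) against 156 (152 to 159), and the 2 intervals lay far apart. The ratio of the FGR to the Control level was 2.05 (1.97 to 2.13). At least 1 Per1 UMI was found in 30.3% (29.4 to 31.2%) of Control and 51.5% (50.4 to 52.5%) of FGR cells, by exact Clopper-Pearson intervals. With each cell thinned to 1500 UMIs the shares were 10.4% and 20.6%, so the difference was also there at equal depth.

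Per3 (chromosome 4, 151003652 to 151044665) went the other way. It stood at 24.7 CPM (23.4 to 26.1; 1325 UMIs) in the Control library against 14.3 (13.2 to 15.5; 651 UMIs) in the FGR library, a ratio of 0.579 (0.526 to 0.637). Cells with a Per3 UMI were 10.5% and 6.59% of the 2 libraries, or 3.55% and 2.10% at 1500 UMIs per cell. In such thinned cells, which keep fewer counts, Per3 no longer passed the rule of size although its ratio was 0.587. The proportion of Per1 to Per3 transcripts was 3.07 (2.89 to 3.27) in the Control library against 10.9 (10.0 to 11.8) in the FGR library, a 3.54-fold difference (3.19 to 3.91). Per2 (chromosome 1, 91415982 to 91459324), the other light-responsive period gene, gave only 75 and 59 UMIs, 1.40 and 1.30 CPM. Its ratio of 0.927 had an interval of 0.648 to 1.32, so a difference inside that range was not detectable at this depth.

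**Figure D1:**
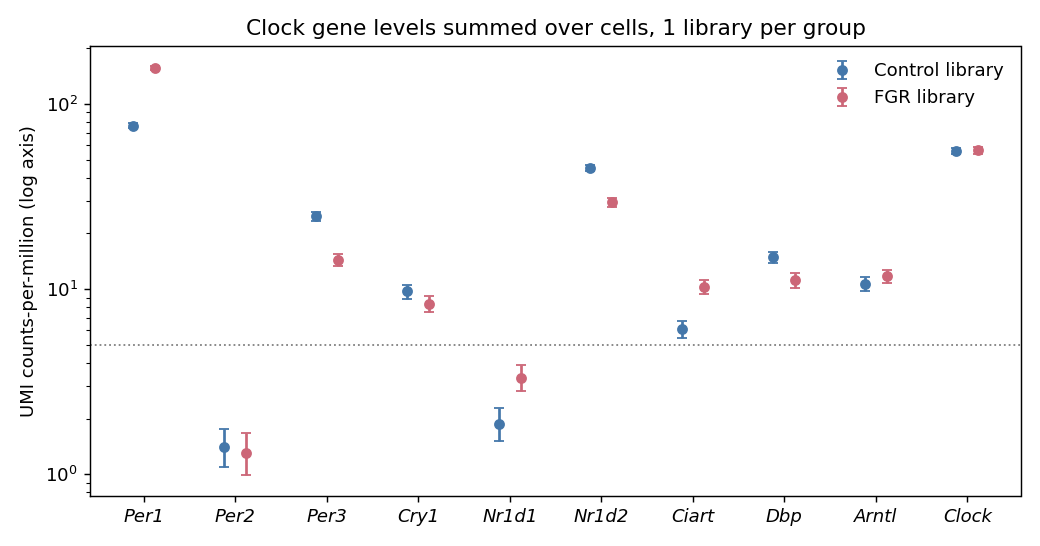
Level of each clock gene in UMI counts-per-million (log axis) summed over the cells of the Control and the FGR library, with 95% Poisson intervals and a dotted line at 5. Per1, Nr1d1 and Ciart sit higher in the FGR library, Per3, Nr1d2 and Dbp lower, and Clock at 55.9 and 56.1 overlaps.

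Cry1 (chromosome 10, 85131700 to 85185064), the cryptochrome that peaks latest, stood at 9.71 CPM (8.89 to 10.6) in the Control library against 8.34 (7.52 to 9.22) in the FGR library. The levels' intervals overlapped, and the ratio was 0.859 (0.751 to 0.983), short of the rule of size. Relative to the UMIs of Arntl and Clock together it was 0.146 and 0.123.

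The 2 REV-ERB genes differed in opposite directions. Nr1d2 (chromosome 14, 18204054 to 18239127) stood at 45 CPM (43.2 to 46.8) in the Control library against 29.5 (27.9 to 31.1) in the FGR library. Its ratio of 0.655 (0.612 to 0.700) missed the rule of size only because the upper bound lay above 1/1.5, and at 1500 UMIs per cell the ratio was 0.584 and passed. That thinning was a single random draw, which the strata below use too. The mean over cells, which also weighs cells equally, gave 0.660 (0.617 to 0.706) and did not pass. Nr1d1 (chromosome 11, 98767932 to 98775333), the classical REV-ERB gene of the clock, gave 100 UMIs against 151, or 1.87 CPM (1.52 to 2.27) against 3.32 (2.81 to 3.90). The ratio was 1.78 (1.37 to 2.32), at a level below the minimum. Nr1d1 per Nr1d2 transcript was 0.0415 in the Control library against 0.113 in the FGR library, 2.72-fold apart (2.09 to 3.53). Exons of Nr1d1 overlap those of Thra on the opposite strand, over 1075 bases of the 2 genes. Thra itself stood at 10.1 and 11.1 CPM, a ratio of 1.09 (0.967 to 1.24). The sources used here do not give whether counting used strand, and without it transcripts of Nr1d1 and Thra in the shared bases cannot be told apart.

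Ciart, also called Chrono, a repressor of CLOCK and BMAL1 (chromosome 3, 95878503 to 95882251), stood at 6.07 CPM (5.43 to 6.76; 325 UMIs) in the Control library against 10.3 (9.37 to 11.3; 467 UMIs) in the FGR library. The intervals did not overlap, and the ratio was 1.69 (1.47 to 1.96), with its lower bound just under 1.5. Dbp (chromosome 7, 45705088 to 45710203), the output transcription factor that acts on D-boxes, stood at 14.9 CPM (13.9 to 16) against 11.1 (10.2 to 12.1), a ratio of 0.748 (0.668 to 0.838). Ciart per Dbp transcript was 0.408 and 0.923, 2.26-fold apart (1.89 to 2.71). Dbp shares exonic sequence with Sphk2 on the opposite strand, which stood at 33.7 and 28.4 CPM, a ratio of 0.844. Per3 lies within Camta1 on the same strand without sharing exons, and Camta1 stood at 23.8 and 22.6 CPM. The antisense genes C920021L13Rik at Ciart and Gm45355 at Arntl gave 1.03 and 0.770 CPM and no UMI in either library.

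Summed over all cells at the main settings, neither activator differed beyond counting error, though for Arntl this depended on the processing, as given below. Clock (chromosome 5, 76209868 to 76304792) stood at 55.9 CPM (53.9 to 57.9) and 56.1 (53.9 to 58.3), a ratio of 1.0 (0.951 to 1.06). Arntl (chromosome 7, 113207465 to 113314126) stood at 10.7 CPM (9.80 to 11.6) and 11.7 (10.7 to 12.7), a ratio of 1.10 (0.974 to 1.24), and Arntl per Clock transcript was 0.191 and 0.209. Both intervals of the ratio held 1. Npas2, which can stand in for Clock, gave 1 UMI and 7 UMIs.

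In the Control library Per1 had the highest level, followed by Clock, Nr1d2, Per3, Dbp, Arntl, Cry1, Ciart, Nr1d1 and Per2. These are 3′ counts, 1 per captured molecule and so not divided by transcript length, and capture can differ between genes. Of neighbours in that order, the intervals of Arntl and Cry1 overlapped, and so did those of Nr1d1 and Per2. In the FGR library the order was Per1, Clock, Nr1d2, Per3, Arntl, Dbp, Ciart, Cry1, Nr1d1 and Per2. There the intervals of Arntl, Dbp and Ciart overlapped from one to the next.

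The relation between the period and output genes and the activators depended on Per1. The 7 genes that peak before Cry1 (Per1, Per2, Per3, Nr1d1, Nr1d2, Ciart and Dbp) gave 2.55 UMIs per UMI of Arntl and Clock in the Control library (2.46 to 2.66) and 3.33 in the FGR library (3.20 to 3.47). This was 1.30-fold higher in the FGR library (1.23 to 1.38). Without Per1 the values were 1.41 (1.35 to 1.47) and 1.03 (0.980 to 1.08), a ratio of 0.730 (0.683 to 0.779), so the direction turned. Grouped by the direction of their ratios, a choice made after the values were seen, Per1, Ciart and Nr1d1 gave 1.26 and 2.50 per activator UMI and Per3, Nr1d2 and Dbp gave 1.27 and 0.810. The summed activators were the shared denominator of these values.

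**Figure D2:**
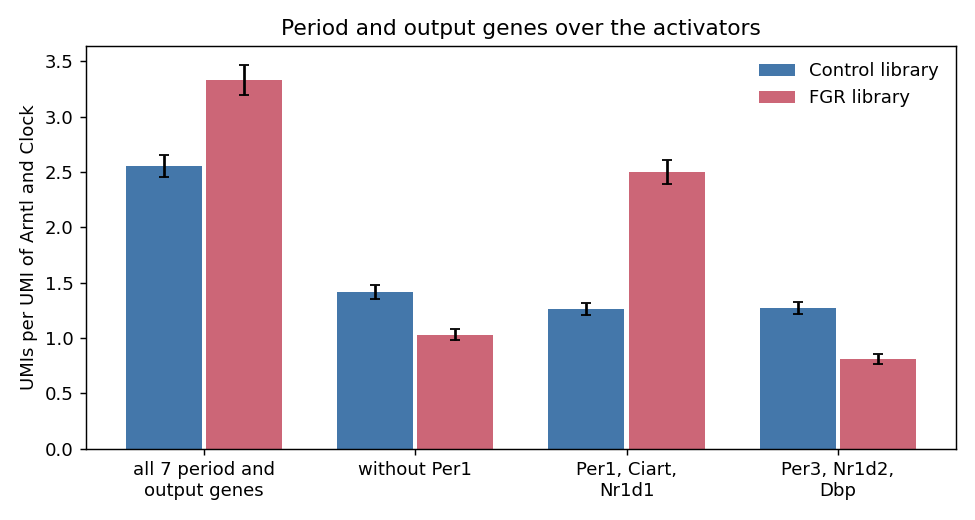
UMIs of period and output genes per UMI of Arntl and Clock in the Control and FGR libraries, for 4 sets of genes, with 95% binomial intervals. The bar of all 7 genes is higher in the FGR library (3.33 against 2.55) and the bar without Per1 is lower (1.03 against 1.41).

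Of 12 other transcription factors of the clock, 7 reached 5 CPM and 0 of them were past the rule of size. Of all genes at 5 CPM, 3.71% were past it in either direction. Their median log2 ratio was 0.08. The largest ratios by size were those of Nfil3, the D-box repressor, at 9.37 CPM in the Control library against 14.1 in the FGR library (ratio 1.51, 1.34 to 1.70), and of Tef, a D-box activator like Dbp, at 39.0 and 27.4 (ratio 0.704, 0.656 to 0.755). Rora, which activates Arntl from the site that REV-ERB proteins repress, had a ratio of 1.41 (1.27 to 1.58). Hlf, the third D-box activator, had a ratio of 1.06 (0.969 to 1.16), so the family did not differ alike. Bhlhe40, an inducible E-box repressor, lay under the minimum with 18 and 71 UMIs, while its relative Bhlhe41 stood at 110 and 136 CPM. With a minimum of 1 CPM, Bhlhe40 passed the rule of size as higher in the FGR library.

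Kinases, ubiquitin ligases and cofactors of the clock mostly stayed within the rule of size. Of 18, 17 were measured, 0 were higher and 1 was lower, against 2.59% and 1.12% of all genes at 5 CPM. The whole interval of the ratio lay above 1 for 0 of the 17 and below 1 for 10, against 18.2% and 42.5% of all genes. The 1 lower was the deacetylase gene Sirt1 at 43.8 and 27.1 CPM (ratio 0.617, 0.576 to 0.662), and the median log2 ratio of the list was -0.10. Sfpq, a partner of PER complexes, and Usp2, a rhythmic ubiquitin protease, had ratios of 0.715 and 0.732. Csnk1e, a kinase of PER proteins, had a ratio of 1.01 (0.988 to 1.03). Of 6 rhythmic output genes, a list chosen with earlier results of these data known, 5 were measured, with a median of 1.22. Of these 3 were higher, against 2.59% of all genes. The 3 higher were Klf9, a Krüppel-like factor that glucocorticoids also induce, at 3.16 and 11.2 CPM (ratio 3.56, 2.99 to 4.27), the mitotic kinase gene Wee1 at 2.61 and 7.09 (2.71, 2.22 to 3.33) and Klf10 at 28.3 and 65.9 (2.32, 2.18 to 2.47). Nampt and Por had ratios of 1.07 and 0.975, with intervals that held 1.

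**Figure D3:**
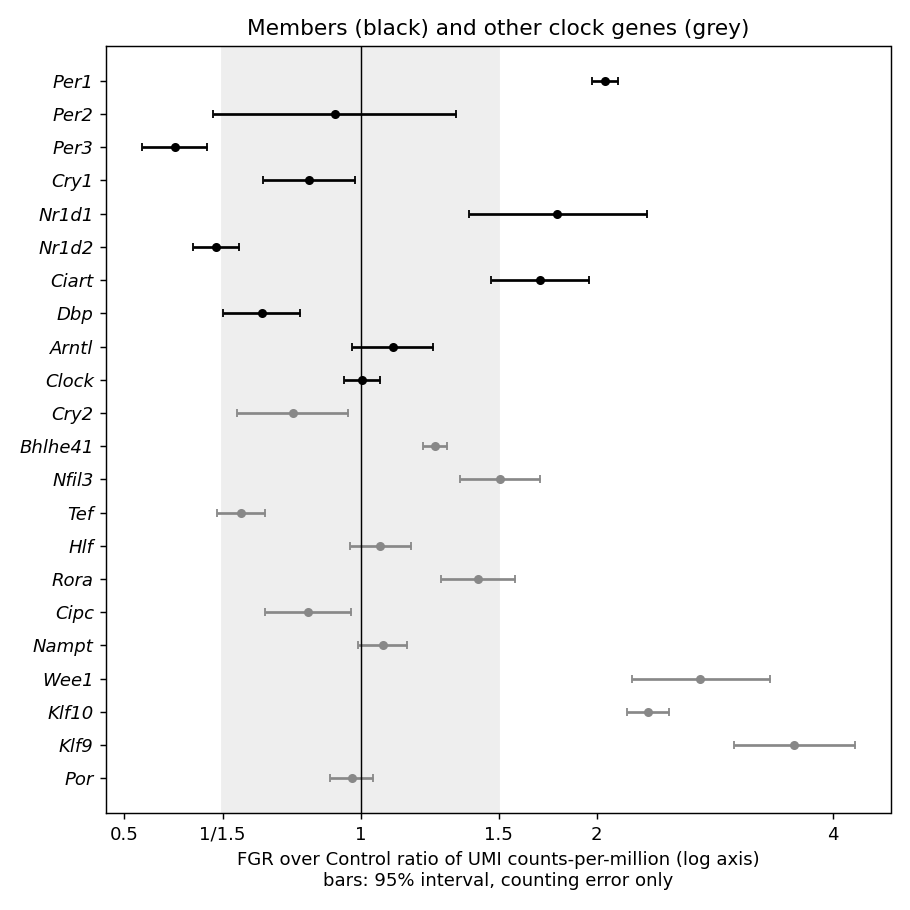
Ratio of the FGR to the Control level (log axis) with 95% intervals for the 10 members in black and the other measured clock transcription factors and output genes in grey; the shaded band runs from 1/1.5 to 1.5. Per1, Wee1, Klf10 and Klf9 lie wholly above the band and Per3 wholly below it.

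Of 6 genes known to be repressed by REV-ERBα in macrophages, 5 were measured and 0 passed the rule of size. Il6 and Il1b, inflammatory cytokine genes, had ratios of 1.45 and 1.40, and the inflammasome gene Nlrp3 of 0.768. The whole interval of the ratio lay above 1 for 2 of the 5 and below 1 for 3, against 18.2% and 42.5% of all genes at 5 CPM. The list's median log2 ratio was -0.18. Genes that respond to the inputs of Per1 were given beside it, in lists chosen with earlier results of these data known. Of all genes at 5 CPM, 2.59% were higher and 1.12% lower by the same rule. Of 10 measured glucocorticoid response genes other than Per1, 7 were higher and 0 lower (median log2 ratio 1.09), led by Ddit4, Dusp1 and Klf9 with ratios of 5.78, 4.68 and 3.56, while Errfi1 had 0.902. Of 7 measured cAMP response genes 3 were higher and 0 lower (median 0.15), led by Sik1, a kinase gene induced through CREB, at 2.60 and 16 CPM (ratio 6.16), Fosb (2.04) and Nr4a1 (1.69), while Rgs2 had 0.835. Of 10 immediate early genes 5 were higher and 0 lower (median 0.55), with Fos, Fosb and Atf3 at 2.15, 2.04 and 1.96 and Egr1 at 0.755. The lists are not separate: Fosb and Nr4a1 are in both the cAMP and the immediate early list. Klf9 is in both the glucocorticoid and the rhythmic output list. The part of these inputs in the levels of Per1 was not tested. The strata that follow were made by the immediate early list and by UMI total, not by the glucocorticoid or cAMP list.

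Cells were divided into 4 strata by the summed UMIs of the 10 immediate early genes at 1500 UMIs per cell, with equal limits for both libraries. Per1 was higher in each higher stratum of each library. In the Control library it stood at 63.0 CPM (56.1 to 70.6), 69.1, 81.2 and 92.4 (81.4 to 104) from the lowest to the highest stratum, and in the FGR library at 108 (95.7 to 121), 152, 163 and 188 (175 to 202). The lowest FGR stratum lay above the highest Control stratum in level, though their intervals overlapped. Within strata the ratio was 1.71 (1.45 to 2.02), 2.21, 2.01 and 2.04 (1.77 to 2.36), so Per1 was higher in the FGR library within each stratum. Median immediate early UMIs were equal in the lower strata, at 15, 30 and 44 in both libraries. In the highest stratum, of 53 to 161 UMIs, they were 62 in Control and 68 in FGR, so cells there were not fully matched. Per3 showed no such gradient, with Control levels of 25.4, 25.6, 22.0 and 26.2 CPM and FGR levels of 13.1, 16.6, 12.5 and 15.6. Its ratio lay between 0.516 and 0.649 and each interval stayed below 1. Nr1d2 also kept its direction, with ratios of 0.745 (0.563 to 0.977), 0.506, 0.499 and 0.544.

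For Ciart and Dbp the ratio lay farther from 1 in the highest stratum than in the lowest, but the intervals of those ratios overlapped and the difference was not tested. Ciart stood at 7.83 CPM (5.51 to 10.8), 6.28, 4.61 and 2.52 (1.01 to 5.18) across the strata of the Control library and at 10.5 (6.96 to 15.1), 7.95, 12.8 and 10.8 (7.88 to 14.5) in the FGR library. The Control intervals of the lowest and highest strata did not overlap, and those of the FGR library did. Its ratio was 1.34 (0.789 to 2.25) in the lowest stratum and 4.30 (1.92 to 11.3) in the highest, where the Control library gave 7 UMIs. Dbp had a ratio of 1.0 (0.656 to 1.52) in the lowest stratum and 0.487 (0.306 to 0.769) in the highest. Clock stood between 51.4 and 57.9 CPM in the Control strata and between 50.7 and 70.0 in the FGR strata, and its ratio in the lowest stratum was 1.28 (1.05 to 1.55). In 3 strata of cells by UMI total, Per1 had ratios of 2.02, 2.20 and 2.16, Ciart of 1.84, 1.92 and 1.82, Per3 of 0.650, 0.620 and 0.516 and Nr1d2 of 0.595, 0.551 and 0.602, from the lowest to the highest stratum. Dbp varied more, with 0.578 (0.400 to 0.824), 0.870 and 0.892. The activators were not level in each of these strata. Clock had ratios of 1.21 (1.03 to 1.43), 1.07 and 0.906, and Arntl of 0.670 (0.438 to 1.01), 1.5 (1.02 to 2.21) and 1.10.

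**Figure D4:**
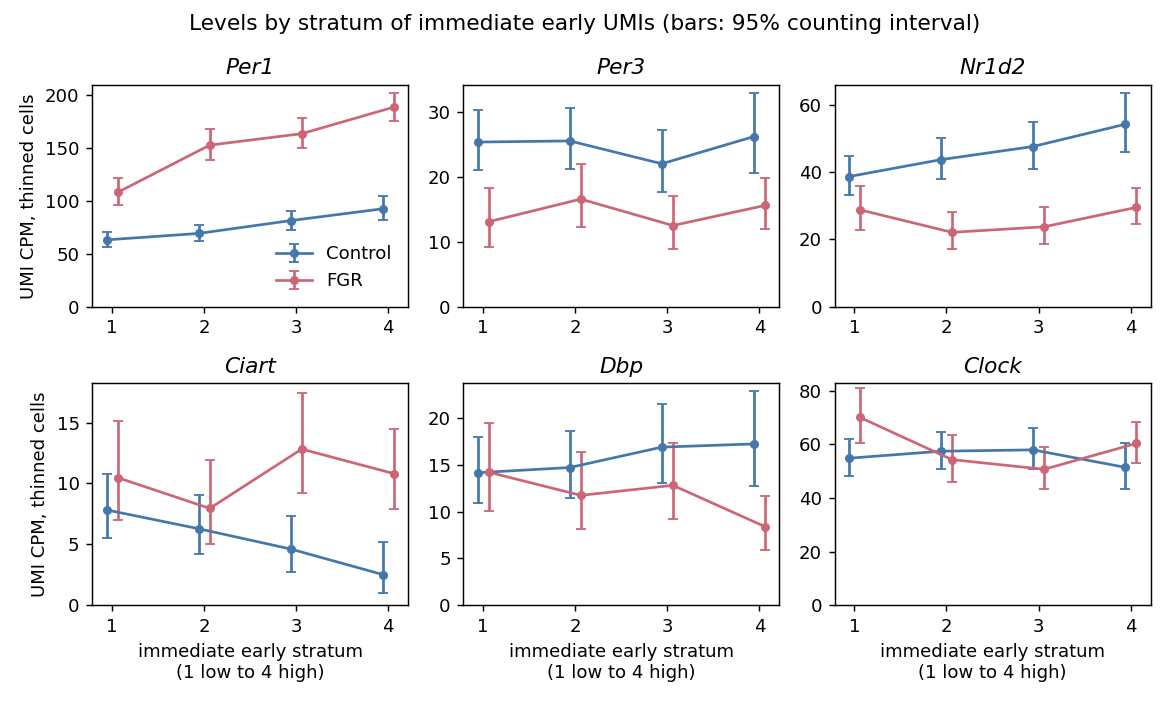
Levels of 6 clock genes in UMI counts-per-million against the stratum of immediate early UMIs (1 low to 4 high) in cells thinned to 1500 UMIs, with 95% counting intervals. Per1 is higher in each higher stratum of both libraries (63.0 to 92.4 in Control, 108 to 188 in FGR), while Per3 and Nr1d2 stay lower in the FGR library in each stratum.

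Cells were also clustered on genes other than the clock genes. The 4 largest of the 11 clusters came mostly from 1 library each. Clusters 0 and 1, led by Arl4d and by Hes1, held 5273 and 4057 Control cells against 74 and 524 FGR cells, and clusters 2 and 3, led by Ccrl2 and by Tmx4, held 4495 and 2708 FGR cells against 73 and 21. Clusters 1 and 4, the latter led by Lgals3 with 558 Control and 468 FGR cells, had at least 100 cells of each library. Cells were assigned by expression, so these ratios are no independent check. Per1 had ratios of 1.72 (1.48 to 2.0) and 1.80 (1.53 to 2.11) there, Nr1d2 of 0.697 (0.516 to 0.923) and 0.585 (0.419 to 0.810), and Per3 of 0.643 (0.426 to 0.935) and 0.678 (0.422 to 1.08). For Ciart both intervals held 1, with 0.860 (0.472 to 1.45) in cluster 1 and 1.23 (0.801 to 1.9) in cluster 4. So did those of Nr1d1, with 0.902 (0.178 to 2.85) and 0.416 (0.116 to 1.24), on 3 and 5 FGR UMIs. The ratio of Ciart over all cells, 1.69, lay inside its interval of cluster 4 but above that of cluster 1. That of Nr1d1, 1.78, lay inside its interval of cluster 1 but above that of cluster 4. Differences of the size seen over all cells were thus not found in both clusters for either gene. These counts are too low to show whether smaller differences were kept. In the Control library Ciart stood at 2.64 CPM in cluster 0, the largest, against 9.74 in cluster 1 and 12.1 in cluster 4. Arntl was lower in the FGR cells of cluster 4 (ratio 0.494, 0.255 to 0.916) but not of cluster 1 (1.29).

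Across clusters Clock varied little, from 53.0 to 56.8 CPM over the 6 Control clusters of at least 100 cells and from 45.5 to 65.9 over the 5 such FGR clusters. Per1 ranged over the same clusters from 66.7 to 98.7 CPM in the Control clusters and from 47.8 to 175 in the FGR clusters, and the lowest FGR value came from cluster 7, which had Ptprz1, a transcript of glia other than microglia, among its leading genes and a median of 2531.5 UMIs per cell. Among Control clusters of at least 100 cells Per3 was highest, at 51.2 CPM on 28 UMIs, in cluster 8, led by satellite-like predicted genes. Over these 11 groups of library and cluster, with each library centred on its own mean log2 level, the genes most like Per1 among 3217 were 5031425E22Rik, Spata13 and Rgs2 (Pearson r of 0.982, 0.979 and 0.979). Those most like Clock were Rif1, Prpf39 and Tcf12 (0.967 to 0.959), those most like Nr1d2 were Sipa1, Senp2 and Fermt3 (0.987 to 0.985), and those most like Per3 were Limd2, Ap1b1 and Ptp4a3 (0.929 to 0.923). The groups share libraries and depth, and cluster 7 is the lowest of the FGR clusters in Per1, Clock, Nr1d2 and Per3, so these values describe the 11 groups only.

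Co-detection in single cells gave little on phase. At 1500 UMIs per cell 70.0% of Control and 64.1% of FGR cells held no clock gene UMI, and 4.39% and 5.24% held 2 or more members. Of 45 pairs, 1 in each library had separate intervals for the share of cells with the second gene among cells with and without the first, and 0 pairs were separate in the direction of exclusion. In the Control library Dbp was found in 4.49% (2.63 to 7.08%) of 379 cells with a Per3 UMI and in 2.18% (1.91 to 2.48%) of the others. In the FGR library Nr1d2 was found in 8.29% (4.71 to 13.3%) of 181 cells with a Per3 UMI and in 3.67% (3.28 to 4.10%) of the others. Per1 was not among these pairs: Per3 was in 2.88% of Control cells with a Per1 UMI and in 3.62% without, and in 2.03% and 2.12% of FGR cells, with overlapping intervals.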

How the data were processed

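The authors deposited 2 unfiltered matrices of whole-number UMI counts, with Cell Ranger 4 named per the file headers. Per the submitters' processing notes, Cell Ranger 3.0, Seurat 5.0 and mm10 were used. The sources used here do not give the annotation or the use of strand. The labels' protocols name version 2 of the 10x Genomics 3′ chemistry, but the matrices list 1961707 and 1935841 barcodes, more than that version has, so the chemistry is uncertain. Cells were barcodes with at least 1500 UMIs, at least 200 genes and at most 10% of UMIs from symbols starting mt-, and they held 90.8% and 89.4% of all UMIs. Doublets were not called. Counts were summed per library and given as CPM with exact Poisson intervals, and ratios have exact conditional intervals. Coordinates are from GENCODE M21 (GRCm38), where 32158 of 32285 gene IDs were found.

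Clustering (scanpy 1.11.5) left out clock genes and used 2000 variable genes, 30 components, 15 neighbours and a Leiden resolution of 0.5. The leading gene of a cluster had the largest fold over other cells among genes in at least 10% of its cells. Free RNA was profiled in barcodes of 10 to 100 UMIs. On simulated data for the FGR against Control sums (9511 genes), 100% of genes set 3-fold higher or lower were called, 0 unchanged genes were, and 95.2% of intervals held the true ratio; only counting error was simulated.

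Members and lists were chosen with earlier results of these data known. Named were all members, listed clock genes past the rule of size and the 3 of each clock list with the largest absolute log2 ratio, the 3 highest and 1 lowest of the glucocorticoid, immediate early and cAMP lists, genes of like pattern, and genes overlapping a member. Hlf, Bhlhe40, Bhlhe41, Npas2, Csnk1e, Nampt and Por were named after their values were seen. Some marker and leading genes are not reported here. Alternatives covered cell limits, other cell types, depth, free RNA, scaling, the minimum and the fold.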

Additional observations from a re-analysis of the deposited data

How the results depend on the processing

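The ratio of each of the 10 members was recomputed under 11 settings of cells, depth, free RNA and scaling, 110 values in all, of which 108 stayed within the main interval, 2 moved outside it and 0 reversed. Those outside were Nr1d2 at 1500 UMIs per cell (0.584) and Per1 with scaling by the median of ratios (2.14). Over these settings Per1 lay between 2.0 and 2.14, Per3 between 0.574 and 0.604, Nr1d2 between 0.584 and 0.683, Ciart between 1.61 and 1.87 and Dbp between 0.710 and 0.781. Arntl lay between 1.03 and 1.19. Its interval lay just above 1 with scaling by the median of ratios (1.02 to 1.29) and by the mean over cells (1.01 to 1.28). The same held without cells carrying other cell types' RNA (1.01 to 1.40) and without the 6% of cells with the most UMIs (1.002 to 1.29). In the other settings it held 1. The number of members past the rule of size, 2, was 1 with a minimum of 50 CPM (Per1), 4 with a fold limit of 5/4 (Per1 and Ciart higher, Per3 and Nr1d2 lower) and 0 at 2-fold, and with scaling by the median of ratios Ciart joined Per1 and Per3. No test exists behind that count of 0. The number of other clock genes past the rule, 4, was 5 with a minimum of 1 CPM, where Bhlhe40 joined. It was 1 with a minimum of 50 CPM, Klf10, and 9 with a fold limit of 5/4. Sirt1 did not pass at 1500 UMIs per cell, with scaling by the median of ratios or by the mean over cells. The period and output genes over the activators, 1.30-fold higher in the FGR library, turned to 0.730 without Per1; the other settings gave the same direction. Leaving out cells with other cell types' markers removed 3678 Control and 3560 FGR cells, and without counting Slc1a3, a choice made after seeing the data, 1930 and 823. No paired analysis was possible because each group is 1 library. Per2 and Nr1d1 are limited by depth.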

Other observations

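Barcodes of 10 to 100 UMIs, 75871 in the Control library against 77626 in the FGR library, hold free RNA rather than cells. Per1 stood there at 115 CPM (336 UMIs) in the Control library against 285 (746 UMIs) in the FGR library. Nr1d2 stood at 46.4 and 33.6 CPM, Per3 at 19.6 and 11.1 on 57 and 29 UMIs, and Clock at 46.4 and 39.0. The directions of Per1, Per3 and Nr1d2 were those of the cells of the same libraries. From the red cell genes, which microglia do not make, free RNA made up at most 3.31% of the UMIs of Control cells and 2.48% of those of FGR cells. On that basis it accounts for at most 5.01% of the Per1 level in the Control library against 4.53% in the FGR library. No cell type is known to lack the clock genes, so no background share from such cells can be given beside the shares of cells with a UMI.

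At full depth 34.5% of Control cells and 26.4% of FGR cells held no UMI of any clock gene, and 27.3% and 32.5% held 2 or more of the 10 members.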
